A study of Mus musculus with 5 samples.

Results

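Broad H3K4me3 promoter domains were regions of wild-type (WT) double-positive thymocytes in which trimethylated lysine 4 of histone H3 was listed across at least 3000 bp around a protein-coding transcription start site (TSS). They were chosen by their WT H3K4me3 values: listed 200-bp windows with at most 2 missing windows between them were joined into a peak, and autosomal peaks at least 3000 bp wide, with at most 10 RPM in all and within 1 kb of a TSS, were retained. RPM is the number of sequenced tags per 1000000 mapped tags. This gave 609 domains of 14237 WT H3K4me3 peaks, beside 5890 narrower autosomal promoter peaks of at most 10 RPM that served as the comparison. Since width, summed RPM in WT cells and nearness to an annotated TSS defined the domains, these measures are given as a description. The other 2 lists and the sequence were not used in the choice. Whether Cxxc1-deficient data served as a control in calling the WT H3K4me3 list is not stated, so full independence of the lists cannot be claimed.

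The study profiled chromatin of CD4+CD8+ double-positive thymocytes by ChIP-seq in 5 libraries, with 1 library each of H3K4me3 and Cxxc1 from WT and Cxxc1-deficient mice and 1 WT input. WT mice were Cxxc1 fl/fl, and deficient mice were Cxxc1 fl/fl hCD2Cre, in which a Cre driven by the human CD2 promoter removes 2 exons of Cxxc1 from early thymocytes and also acts in other immune cells; both were 3 to 4 weeks old and backcrossed to C57BL/6. The titles of the deficient samples read KO, whereas their genotype field reads Cxxc1+/-, and the domain lists hold no measurement of the deleted exons. Window lists were analysed for WT H3K4me3, Cxxc1-deficient H3K4me3 and Cxxc1, the last being taken as WT from the methods since its name carries no genotype. With 1 library per group and no replicate, no test between genotypes was possible, and every interval covers counting error only. A lower signal per cell cannot be told apart from fewer cells carrying the mark or from a weaker immunoprecipitation.

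H3K4me3 marks active and poised promoters and is deposited by the Setd1 and Mll complexes. Cxxc1 is the CXXC-domain subunit of the Setd1 complex and binds unmethylated CpG dinucleotides, through which the complex is brought to CpG islands. Double-positive thymocytes are the stage at which T-cell receptor selection takes place, and wide H3K4me3 domains are known from many tissues at genes of cell identity and transcriptional regulation.

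To show what the start sites of such domains look like, 6 upstream sequences are given that run from CpG-dense to CpG-poor. Each holds the 200 bases directly upstream of the most 5' annotated TSS that the gene has within the domain. All lie inside the domain and overlap no annotated exon. They are written 5' to 3' on the strand of the gene, with CG dinucleotides in capitals (mouse build mm9).
Tcf7 (chr11:52096682-52096881, minus strand): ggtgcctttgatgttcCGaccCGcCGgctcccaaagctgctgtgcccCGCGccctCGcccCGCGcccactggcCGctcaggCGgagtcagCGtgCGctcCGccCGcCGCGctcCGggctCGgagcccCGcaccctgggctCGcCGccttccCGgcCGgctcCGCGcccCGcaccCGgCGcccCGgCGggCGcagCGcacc
Arc (chr15:74503001-74503200, minus strand): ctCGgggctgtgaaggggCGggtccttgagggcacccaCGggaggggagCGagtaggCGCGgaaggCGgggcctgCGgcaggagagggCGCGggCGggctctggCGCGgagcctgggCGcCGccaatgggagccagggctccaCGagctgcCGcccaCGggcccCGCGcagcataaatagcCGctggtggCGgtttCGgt
Myc (chr15:61816746-61816945, plus strand): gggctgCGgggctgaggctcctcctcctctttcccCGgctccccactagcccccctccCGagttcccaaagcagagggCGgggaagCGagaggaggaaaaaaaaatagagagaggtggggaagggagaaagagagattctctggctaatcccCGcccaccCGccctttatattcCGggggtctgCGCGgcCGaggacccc
Zap70 (chr1:36818495-36818694, plus strand): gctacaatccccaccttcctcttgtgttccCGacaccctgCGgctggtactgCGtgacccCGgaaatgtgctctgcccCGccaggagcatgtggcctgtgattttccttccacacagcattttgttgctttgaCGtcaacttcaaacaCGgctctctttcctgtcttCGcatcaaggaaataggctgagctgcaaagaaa
Cd5 (chr19:10813465-10813664, minus strand): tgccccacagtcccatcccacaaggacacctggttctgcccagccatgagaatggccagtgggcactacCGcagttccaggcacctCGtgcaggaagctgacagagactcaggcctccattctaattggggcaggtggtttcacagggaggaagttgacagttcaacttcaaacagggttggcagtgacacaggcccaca
Cd82 (chr2:93303298-93303497, minus strand): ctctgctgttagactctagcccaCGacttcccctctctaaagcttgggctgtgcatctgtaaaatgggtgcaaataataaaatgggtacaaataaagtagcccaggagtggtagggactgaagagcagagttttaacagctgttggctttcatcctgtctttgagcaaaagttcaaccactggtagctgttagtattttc

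The upstream sequence of Tcf7, the gene of the T-lineage factor TCF-1, held 32 CG dinucleotides, that of Arc, an immediate-early gene, held 23, and that of Myc, a proliferation regulator, held 11. Zap70, a kinase of the T-cell receptor, had 8 CG dinucleotides in the same stretch, Cd5, an inhibitory co-receptor, had 2, and Cd82, a tetraspanin, had 1. A wide domain was therefore listed over start sites at both ends of the CpG range. Over the 488 broad domains with 1 gene and its TSS inside, the median was 14 CG dinucleotides in the 200 upstream bases (interquartile range 8 to 21), against 15 (9 to 20) in 4470 narrower peaks of the same kind. At most 3 CG dinucleotides were found in 53 of the 488 (10.9%, 95% Wilson interval 8.4 to 13.9) and in 251 of the 4470 (5.62%, 4.98 to 6.33). By this measure CpG-poor start sites took a larger share among the broad domains. The TSS used was the most 5' one inside the peak, which need not be the first of its gene. With only the most 5' TSS of each gene, 517 broad domains were left, of which 88.6% overlapped a CpG island, instead of 82.3%. Whether the choice of TSS bears on the CpG-poor share was not tested.

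The 609 domains had a median width of 3400 bp (range 3000 to 8400) and a median of 5.0 RPM (2.5 to 10), which is 50 tags. Narrower promoter peaks had a median width of 1400 bp and 2.4 RPM. The median RPM per listed window was 0.355 in broad domains and 0.400 in narrower peaks, and the strongest window had a median of 0.6 RPM in both. The width rule requires more windows and the RPM limit caps their sum, so these values only describe the chosen peaks. Listed windows covered 78.9% of a broad domain and 87.5% of a narrower peak at the median. At the width threshold, 134 domains were exactly 3000 bp wide, and 175 peaks of 2800 bp lay just outside. At the RPM limit, the Mafg/Sirt7 domain had 10 RPM, and the next wide promoter peak, at Snai3, was left out with 10.1 RPM, as were 9 others of up to 46.4 RPM.

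**Figure D1:**
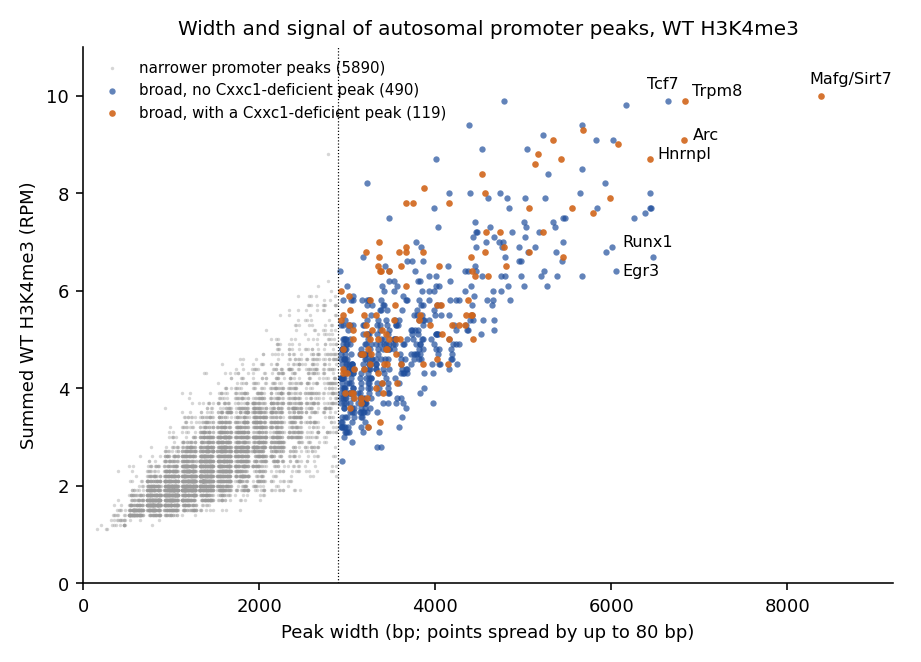
Width (bp, x axis) against summed WT H3K4me3 (RPM, y axis), 1 point per promoter peak on the autosomes, up to 10 RPM. Grey points are the 5890 narrower peaks, blue points the 490 broad domains without and orange points the 119 with an overlapping Cxxc1-deficient H3K4me3 peak, which lie throughout the cloud of broad domains. The dotted line separates 2800 from 3000 bp.

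The widest domain spanned 8400 bp at the promoters of Mafg, a small Maf transcription factor, and Sirt7, a sirtuin (chr11:120484801-120493200, 29 windows, 100 tags, exact 95% Poisson interval 81.4 to 121.6). Arc had 6800 bp and 9.1 RPM, Trpm8, a cold-sensing ion channel, 6800 bp and 9.9 RPM, and Tcf7 6600 bp and 9.9 RPM (99 tags, 80.5 to 120.5). Hnrnpl, an RNA-splicing protein, Hmha1, a minor histocompatibility protein, Lhx2, a LIM-homeobox factor, Cxxc5, a CXXC zinc finger protein, and the Nxnl1/Slc27a1 pair were among the next widest, each with 6400 bp and between 6.7 and 8.7 RPM. By summed RPM, the 10 strongest domains, from 9.1 to 10 RPM, were Mafg/Sirt7, Tgif1, Tcf7, Trpm8, both domains of Rara, Adssl1, Midn, Foxo3 and Arc, the last taken for its width among those tied at 9.1 RPM. Tgif1, a TALE homeobox repressor, reached 9.9 RPM within 4800 bp, since 23 of its 24 possible windows were listed. Rara, the retinoic acid receptor alpha, carried separate domains of 6200 and 5600 bp, 16800 bp apart.

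Most domains belonged to 1 gene: 530 touched the promoter of 1 gene, 77 of 2 genes and 2 of 3 genes. A promoter of 2 or more genes was touched by 13.0% of broad domains (Wilson interval 10.5 to 15.9) and 12.8% of narrower peaks (11.9 to 13.6), and TSSs on both strands were held by 9.85% (7.73 to 12.5) and 10.6% (9.85 to 11.4). Width was thus not accompanied by a larger share of paired promoters. In single-gene domains the median length was 1315 bp upstream and 2275 bp downstream of the TSS, compared with 511.5 and 868 bp in narrower peaks, and the downstream part took a median of 63.0% and 63.8% of the peak. The greater length of broad domains follows from the width rule, and the downstream share was close in both kinds of peak. Lef1, a partner of TCF-1, lay almost wholly in the gene body with 188 bp upstream and 3012 bp downstream, whereas Runx1 extended 2827 bp upstream and 3173 bp downstream. Of all bases in broad domains 50.5% were intronic, 26.5% lay between genes, 11.7% in untranslated exons and 11.4% in coding exons, and for narrower peaks these shares were 44.7%, 27.9%, 15.8% and 11.5%.

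Along the gene, the share of single-gene broad domains with a listed WT window was highest in the first 200 bp downstream of the TSS (87.7%) and was 49.0% at 1900 bp downstream and 52.7% at 900 bp upstream. CpG density followed a narrower curve. The mean count per 200 bp was 17.9 just downstream of the TSS and 4.83 at 1900 bp downstream, where 49.0% of the domains were still listed. Mean RPM of a listed window changed less, from 0.410 just upstream of the TSS to 0.340 at 1900 bp downstream. Windows with 11 or more CpGs made up 30.5% of the listed windows of broad domains and 46.7% of those of narrower peaks, and windows with 2 or fewer CpGs 21.5% and 12.5%.

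**Figure D2:**
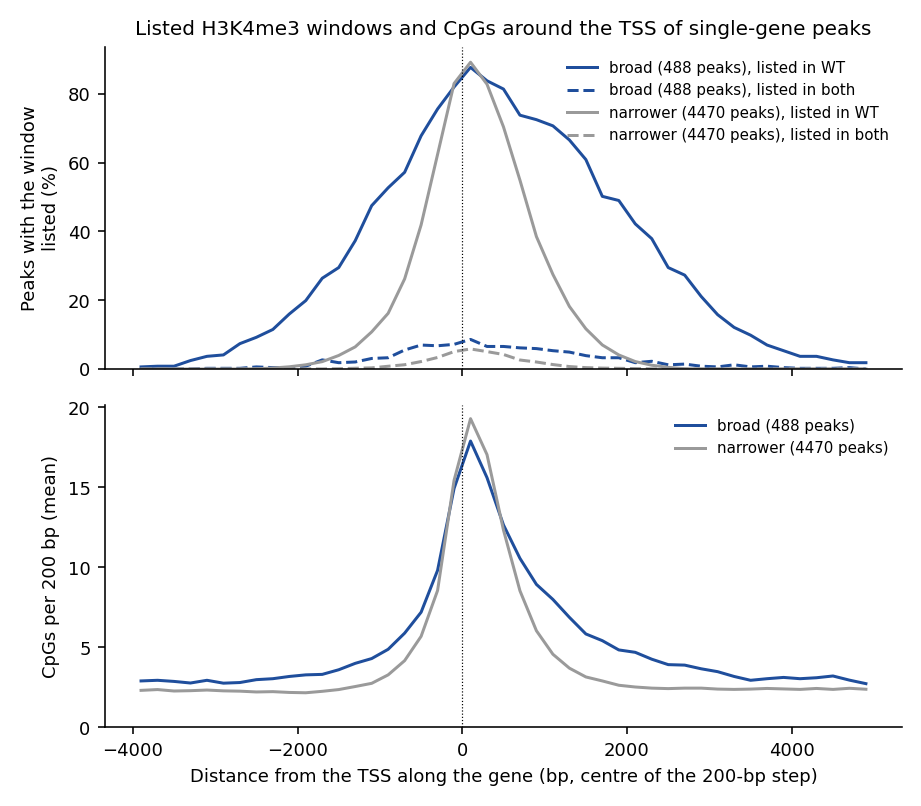
Upper panel, share of single-gene promoter peaks (%, y axis) in which the 200-bp window at a given distance from the TSS along the gene (bp, x axis) was listed in WT (solid) and in both WT and Cxxc1-deficient cells (dashed); lower panel, mean CpGs per 200 bp. Broad domains (blue, 488) remain listed to 2 kb and beyond on the downstream side, where their CpG count has dropped to below 5 per 200 bp. At 1900 bp 49.0% of them and 4.09% of narrower peaks (grey, 4470) were listed in WT, a contrast that the width rule fixes.

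A CpG island (at least 500 bp, 55% GC, observed to expected CpG 0.65) was overlapped by 501 of the 609 domains (82.3%, 79.0 to 85.1), where 85.9% of all 6499 autosomal promoter peaks of at most 10 RPM overlapped one. Overlap with 2 or more separate islands was found in 105 domains (17.2%, 14.4 to 20.4) and in 1.94% of narrower peaks (1.61 to 2.32). Island bases within a peak had a median of 1406 bp in broad domains and 1000 bp in narrower peaks, which is 39.2% and 73.3% of the peak. Between width and island bases Spearman's rho was 0.08 across the 609 broad domains of this library and 0.41 across narrower peaks, where the width of the peak itself limits the island bases it can hold. The least CpG-dense domains were Gm14492/Tnnt3 with 7.5 CpGs per kb, Trpm8 with 7.9 and Sh2d7 with 8.3, and the densest were Zswim6 with 125.3 and Arid2, a subunit of a SWI/SNF remodelling complex, with 105.3. Among named immune genes, Zbtb7b had 16.4 CpGs per kb and Foxo1 89.1.

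Broad domains covered 683 of 21275 autosomal protein-coding genes (3.21%), and 6228 further genes had only a narrower promoter peak. Because all listed genes and domains come from 1 WT library, list counts are read against this share and against the 9.88% of the 6911 genes with either kind of peak. In the list of T-lineage regulators 13 of 40 autosomal genes had a broad domain, 21 had a narrower peak and 6 had neither, which is 38.2% of its 34 marked genes (Wilson interval 23.9 to 55). These 13 were Tcf7, Lef1, Runx1, Runx3, Myb, Id3, Notch1, Foxo1, Zbtb7b, Egr1, Egr3, Fli1 and Patz1, with widths from 3000 to 6600 bp and 4.8 to 9.9 RPM. They include the Notch1 receptor that commits progenitors to the T lineage, the E-protein inhibitor Id3, and Zbtb7b (ThPOK) and Runx3, the regulators of CD4 and CD8 lineage choice. Runx1 (6000 bp, 6.9 RPM, 69 tags, 53.7 to 87.3) and Egr3 (6000 bp, 6.4 RPM, 64 tags, 49.3 to 81.7), a factor induced by receptor signalling, were the widest after Tcf7.

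The T-cell receptor signalling list gave 1 broad domain of 36 genes, at Zap70 (3400 bp, 4.1 RPM, 41 tags, 29.4 to 55.6), and 16 narrower peaks, among them Lck and Lat. The CD4/CD8 lineage and selection list gave 5 of 29, namely Cd5, its relative Cd6, the surface sialoglycoprotein gene Cd24a, the chemokine receptor gene Cxcr4 and Ly6d, all between 3000 and 4000 bp and 3.5 and 6.1 RPM. The NF-kappaB and MAP kinase list gave 8 of 34, at the AP-1 genes Fos, Jun, Junb and Jund, the MAP kinase phosphatases Dusp1, Dusp2 and Dusp4, and the adaptor gene Traf3, which was 32.0% of its 25 marked genes (17.2 to 51.6). The AP-1 and Dusp genes are known as immediate-early and feedback genes of this pathway. The cytokine list gave 4 of 27, at the cytokine-signalling suppressors Socs1, Socs2 and Socs3 and the receptor gene Il17ra. Its receptor gene Il4ra had a promoter peak of 10400 bp and 15.4 RPM, which the RPM limit left out. Socs1 had 8.1 RPM over 3800 bp and was the strongest of these 4.

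RNA splicing and processing gave 3 broad domains of 32 genes with 21 narrower peaks (Hnrnpa2b1, Hnrnpf and Hnrnpl, 12.5% of marked genes, 4.34 to 31.0), the cell cycle list 3 of 34 with 18 narrower peaks (E2f2, E2f3 and Myc, 14.3%, 4.98 to 34.6), and chromatin modifiers and remodellers 7 of 50 with 28 (Hdac5, Hdac7, Brd2, Smarca4, Chd1, Kdm2b and Cbx3, 20%, 10 to 35.9). Of the H3K4 methylation machinery only the methyltransferase gene Mll2 was broad, among 20 genes of which 13, Cxxc1, Setd1a and Setd1b included, had narrower peaks. Neither the antigen receptor recombination list (0 of 14, 6 narrower) nor the apoptosis list (0 of 24, 10 narrower) held a broad domain. Their Wilson intervals, 0 to 39.0% of 6 and 0 to 27.8% of 10 marked genes, include the 9.88% of all marked genes. Of 17 markers of double-positive thymocytes and the T lineage, Cd5, Tcf7 and Lef1 were broad, 6 were narrower, including Cd8a, Cd8b1 and Cd3e, and 8 had no promoter peak of at most 10 RPM, including Cd4, Rag1 and Rag2. Markers of other cell types gave a broad domain at Ebf1 (1 of 6 B-cell genes, 4.0 RPM) and Apoa1 (1 of 4 liver genes, 3.9 RPM) and none among 5 myeloid, 4 erythroid, 5 thymic epithelial and 3 neuronal genes. The part of other cells in the domains was not tested.

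**Figure D3:**
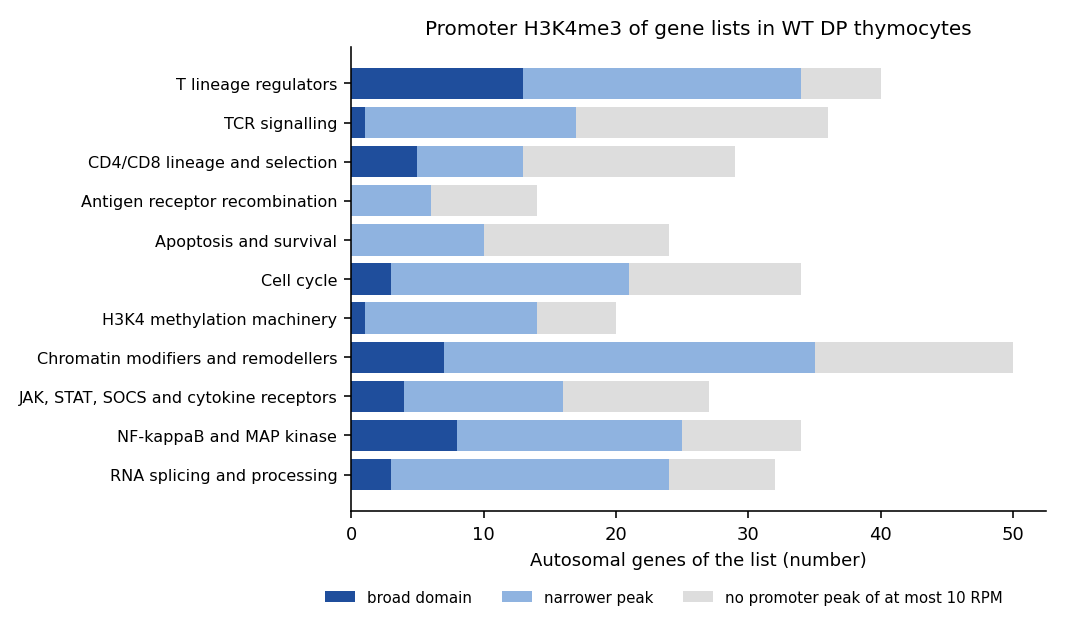
Number of autosomal genes (x axis) of 11 gene lists (y axis) with a broad domain (dark blue), only a narrower promoter peak (light blue) or no promoter peak of at most 10 RPM (grey) in WT cells. The dark share is largest for T lineage regulators (13 of 40) and for NF-kappaB and MAP kinase genes (8 of 34). It is absent for recombination and apoptosis genes, whose intervals include the share of all marked genes.

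The next question was how much of these domains was listed in Cxxc1-deficient cells. An H3K4me3 peak of the Cxxc1-deficient list overlapped 119 of 609 broad domains (19.5%, Wilson interval 16.6 to 22.9) and 607 of 5890 narrower peaks (10.3%, 9.55 to 11.1), where 11.2% of all 6499 promoter peaks of at most 10 RPM had one. For the remaining 490 domains the Cxxc1-deficient list holds no peak, which means that no signal passed the caller there and not that H3K4me3 was 0. Wide peaks of the same kind away from promoters had an overlap in 69 of 509 (13.6%, 10.9 to 16.8).

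Within classes of summed WT RPM, broad domains and narrower peaks did not differ beyond their intervals. Between 3 and 4 RPM, 12 of 108 broad domains (11.1%, 6.47 to 18.4) and 146 of 1118 narrower peaks (13.1%, 11.2 to 15.2) had a Cxxc1-deficient peak. Between 4 and 5 RPM the shares were 14.9% (10.7 to 20.4) and 19.9% (15.7 to 24.9), and between 5 and 6 RPM 21.9% (15.8 to 29.5) and 21.4% (12.7 to 33.8). The broad domains were not the higher ones in the first 2 classes. Above 8 RPM, where 1 narrower peak was left, 12 of 27 broad domains (44.4%, 27.6 to 62.7) had one. With width, the share went from 17.6% (13.8 to 22.2) of 313 domains under 3600 bp to 27.0% (17.6 to 39.0) of 63 domains of at least 5000 bp, whose intervals overlap.

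**Figure D4:**
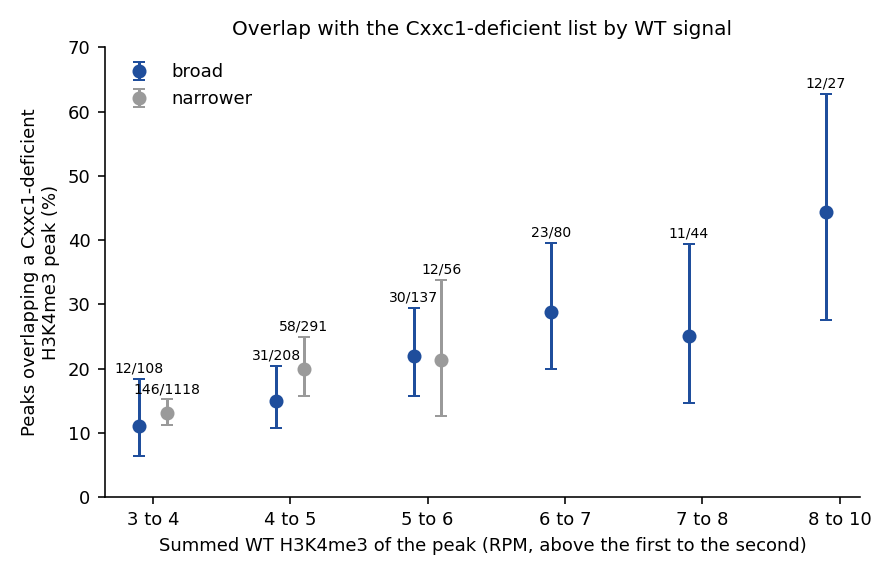
Share of promoter peaks (%, y axis) overlapping a Cxxc1-deficient H3K4me3 peak by class of summed WT RPM (x axis), for broad domains (blue) and narrower peaks (grey) in classes with at least 10 peaks. Points are shares, bars 95% Wilson intervals, and labels the peaks with an overlap over all peaks of the class; in the 3 classes that hold both kinds the bars overlap.

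Overlap with a Cxxc1-deficient peak seldom meant a domain listed at its WT width. Of the 8928 listed WT windows in broad domains 645 (7.22%, 6.71 to 7.78) were listed in Cxxc1-deficient cells, and of 38626 windows in narrower peaks 2213 (5.73%, 5.50 to 5.97). The order of these shares depended on what was matched. Within classes of the summed WT RPM of a peak, the share was lower in broad domains: between 3 and 4 RPM 3.80% of broad-domain windows (2.86 to 5.03) and 6.34% of narrower-peak windows (5.87 to 6.84) were shared, between 4 and 5 RPM 5.68% (4.87 to 6.61) and 9.09% (8.13 to 10.1), and between 5 and 6 RPM 6.87% (5.85 to 8.04) and 8.71% (6.82 to 11.1). In windows with the same WT tag count it was higher or close: with 3 tags 6.72% in broad domains (5.92 to 7.63) and 4.62% in narrower peaks (4.27 to 4.99), with 4 tags 6% (5.03 to 7.14) and 5.92% (5.45 to 6.44), with 5 tags 10% (8.34 to 12) and 6.47% (5.85 to 7.14), and with 8 tags 7.22% (3.54 to 14.2) and 7.70% (5.91 to 9.99). Windows of 1 peak are not independent, so these intervals are too narrow. In the 119 domains with an overlap, a median of 6 windows or 36.4% of the WT windows was shared, and Cxxc1-deficient peaks covered a median of 1600 bp of the domain. More than 50% of the windows were shared in 15 of the 119. In the 97 of these domains with 1 gene and its TSS inside, the Cxxc1-deficient peak came within 1 kb of the TSS in 81 (83.5%, 74.9 to 89.6). The window centred 100 bp downstream of the TSS was listed in WT in 87.6% of them and that at 1900 bp in 51.5%, and of those listed in WT 49.4% and 32.0% were shared. Over all 488 single-gene domains the same shares were 9.81% and 6.69%. In broad domains, windows with 11 or more CpGs were shared more often (9.56%, 8.51 to 10.7) than windows with 2 or fewer (5.62%, 4.67 to 6.74). In narrower peaks these shares were 6.85% and 3.26%. The CpG-rich windows of broad domains also had more WT tags, a mean of 3.95 against 3.31, and CpG count and tags were not separated.

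The 645 shared windows of broad domains summed to 245.4 RPM in WT against 223.0 RPM without Cxxc1, a mean of 0.380 and 0.346 RPM per window. WT was higher in 282 of them, equal in 157 and lower in 206, and the median window ratio of WT to Cxxc1-deficient RPM was 1. Per domain, the RPM of its shared windows was summed in each list and the WT sum divided by the Cxxc1-deficient sum. This ratio of sums was above 1 in 73 of the 119, 1 in 13 and below 1 in 33, with a median of 1.09 (1.04 to 1.12). Windows in both lists had to pass the caller in each, so that the ratio describes only what was listed. Over a whole domain, the Cxxc1-deficient RPM listed within it had a median of 36.4% of the WT RPM among the 119 (range 5.56 to 121.0%).

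Among the T-lineage regulators, 5 of the 13 domains overlapped a Cxxc1-deficient peak, where 119 of all 609 broad domains (19.5%) did, and no difference from that share was tested for this or the lists that follow. At Lef1, 7 of 14 windows were shared, and the domain had 4.8 RPM in WT but 2.5 RPM listed without Cxxc1 (48 tags, 35.4 to 63.6, against 25 listed tags, 16.2 to 36.9). Foxo1 had 6.8 and 2.1 RPM, Egr1 6.3 and 2.5 RPM, Notch1 7.0 and 1.6 RPM, and Patz1 5.3 and 1.7 RPM. Tcf7, Runx1, Egr3, Zbtb7b, Fli1, Id3, Myb and Runx3 had no window or peak in the Cxxc1-deficient list. Zap70 shared 7 of 14 windows, centred from 5 to 1605 bp downstream of the TSS, and had 4.1 RPM in WT against 2.3 RPM without Cxxc1 (41 tags, 29.4 to 55.6, against 23, 14.6 to 34.5). Of the 5 selection genes only Cd6 had an overlap (5.3 and 2.9 RPM), while Cd5, Cd24a, Cxcr4 and Ly6d had none. Of the 8 NF-kappaB and MAP kinase domains, those of Traf3, Dusp1, Dusp2, Junb and Jund had one.

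For several of the widest domains the Cxxc1-deficient list held a short stretch, and the signal in the unlisted windows is unknown. At Arc the Cxxc1-deficient list covered 1000 of 6800 bp around the TSS with 1.7 RPM against 9.1 RPM in WT (17 tags, 9.9 to 27.2, against 91, 73.3 to 111.7). Mafg/Sirt7 had 2000 of 8400 bp and 3.1 against 10 RPM, Hnrnpl 1600 of 6400 bp and 2.2 against 8.7 RPM, and Cd82 1600 of 6000 bp and 2.0 against 9.0 RPM. In the windows listed in both, Arc had 2.0 RPM in WT and 1.7 without Cxxc1, and Mafg/Sirt7 2.5 and 2.4 RPM. The Rara domain of 5600 bp (3800 bp and 4.3 against 9.3 RPM) and that of Coro1a, an actin-binding protein of lymphocytes (3000 of 5400 bp and 3.3 against 9.1 RPM), were listed over a longer stretch. The other Rara domain, of 6200 bp and 9.8 RPM, had no window in the Cxxc1-deficient list. After Trpm8, the largest shares of shared windows were found at Vars2, a mitochondrial tRNA synthetase (7 of 11), Bcl6, a zinc finger repressor (8 of 13), and Sh2d2a, a T-cell adaptor (9 of 15).

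**Figure D5:**
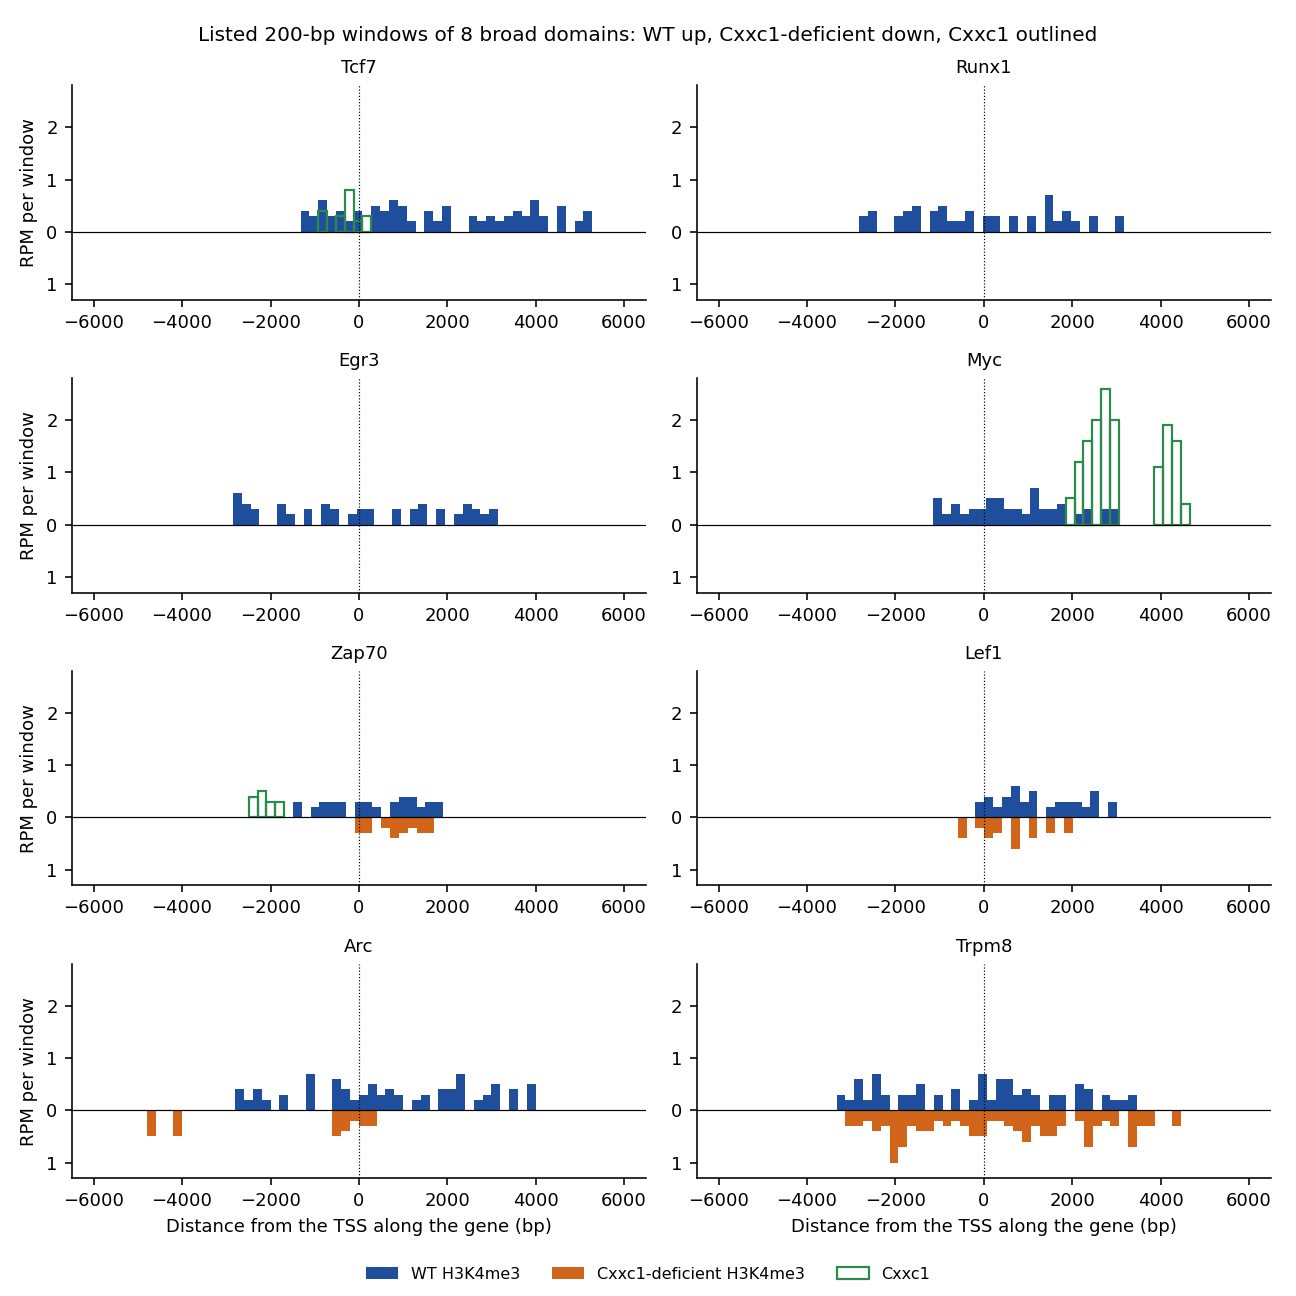
RPM of listed 200-bp windows (y axis) by distance from the TSS along the gene (bp, x axis) for 8 broad domains, with WT H3K4me3 upward in blue for the domain itself, and Cxxc1-deficient H3K4me3 downward in orange and Cxxc1 outlined in green for the domain and 2 kb on either side. Tcf7, Runx1, Egr3 and Myc have no Cxxc1-deficient windows, Zap70 and Lef1 have them near the TSS, Arc has them near the TSS and in 2 windows 4100 and 4700 bp upstream that lie outside the domain, and at Trpm8 they span the whole domain; a place without a bar was not listed.

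The Trpm8 domain stood apart. It shared 25 of its 27 windows and had more RPM in the Cxxc1-deficient list (12.0 RPM, 119 tags, 98.6 to 142.4) than in WT (9.9 RPM, 99 tags, 80.5 to 120.5), and the intervals overlap. It lies 13000 bp from a WT stretch with peaks of 16.2 to 46.4 RPM around Hjurp and Heatr7b1 that are matched in the Cxxc1-deficient list by peaks of up to 37.1 RPM, and a Cxxc1 peak of 20.7 RPM lies in the same stretch. Whether these neighbouring peaks bear on the Trpm8 values was not tested. Without this domain the share of windows also listed in Cxxc1-deficient cells was 6.97% instead of 7.22%, and the sums over shared windows became 236.0 RPM (WT) and 213.8 RPM (Cxxc1-deficient).

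The Cxxc1-deficient list had wide promoter domains of its own, though fewer. Of its 1140 autosomal promoter peaks of at most 10 RPM, 42 (3.68%, 2.74 to 4.94) were at least 3000 bp wide, compared with 609 of 6499 (9.37%, 8.69 to 10.1) in WT. A broad WT domain was overlapped by 9 of these 42, at 2510012J08Rik, Rara, Coro1a, Plekhg2, Scd2, Junb, Hic1, Abhd2 and the 4632404H12Rik/Ube2q1 pair, and 30 of the 42 overlapped any WT peak. At Junb the deficient peak was 3600 bp wide, against 3000 bp in WT. Cd3e, a T-cell receptor chain, had 3000 bp in the deficient list and 2200 bp in WT. No WT peak was overlapped by 12 of the 42, the widest of them at Mif4gd (4800 bp, 5.6 RPM). The same overlap was not counted over all 1140 peaks, so these counts cannot be read as particular to the wide ones.

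Peaks of Cxxc1 were rare at broad domains. A Cxxc1 peak overlapped 18 of 609 (2.96%, 1.88 to 4.62) and 108 of 5890 narrower peaks (1.83%, 1.52 to 2.21), where 1.94% of all 6499 had one, and the intervals of broad and narrower peaks overlap. In wide peaks away from promoters the share was 2.95% (1.79 to 4.80 of 509). The largest Cxxc1 signal, 9.9 RPM, lay at Myc, centred 2454 bp downstream of the TSS at the 3' end of a domain of 4200 bp. Rai1 had 3.5 RPM of Cxxc1. Tcf7 had 2.0 RPM of Cxxc1 with the centre 320 bp upstream of the TSS. A further 14 were Ndst1, Kcna2, Hes7, Hic1, Prkce, BC057022, Socs2, Ndrg4, Mrpl53, Gm1614, Tob2, Traf3ip1, Scrt1 and Gm17532/Hdac7, from 1.4 to 2.9 RPM. Only Hic1, a zinc finger repressor, and Rai1 among the 18 also had a Cxxc1-deficient H3K4me3 peak (11.1%, 3.10 to 32.8, against 19.8%, 16.8 to 23.2, of the 591 without a Cxxc1 peak), and the intervals overlap.

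Broad domains made up 9.37% of the promoter peaks of all autosomes, and the intervals of most single autosomes include that share. At the extremes of the 19 autosomes, they made up 14.1% of the promoter peaks of chromosome 19 (10.3 to 19.1), 13.4% of chromosome 17 (10.1 to 17.4) and 13.0% of chromosome 15 (9.71 to 17.1). On chromosome 6 the share was 4.64% (2.78 to 7.63). These were picked after the values were seen, and no difference was tested. Chromosome 11 held the most, 78 domains. Another broad domain lay within 20 kb of 49 domains (8.05%, 6.14 to 10.5), a count that was not made for narrower peaks. The closest were B3galt4 and Rps18/Vps52 on chromosome 17, and Tmc6 and Tmc6/Tmc8 on chromosome 11, each 800 bp apart, then Nrtn and Dus3l (1000 bp) and Rasl10a and Gas2l1 (1600 bp). Besides Rara, the genes Zfp865, Dpf1, Ralgds and Sept9 carried 2 separate domains within 20 kb, and the Polycomb genes Cbx2 and Cbx8 carried 1 each, 13600 bp apart.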

How the data were processed

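ChIP-seq of double-positive thymocytes was analysed from 3 deposited lists of 200-bp windows, each with 1 column of RPM per window; 5 samples were described, with 1 library each. The authors sequenced 50-bp reads, processed them with CASAVA 1.8.2, kept uniquely mapped reads on mm9 and called enriched windows with SICER 1.1. The methods name input and Cxxc1-deficient ChIP as controls, and the paper's results name these for the Cxxc1 sites. Which control was used for each H3K4me3 list is not stated. The aligner, duplicate treatment and gap size are not given in the sources used here. The deposited RPM values were rounded by the authors to 1 decimal and fell on whole tags, 0.1056 to 0.1062 RPM per tag for H3K4me3, which gives depths of 9460000 to 9470000 tags for WT H3K4me3, 9420000 to 9470000 for Cxxc1-deficient H3K4me3 and 9100000 to 9230000 for Cxxc1. A 5-tag window is thus written as 0.5, and sums of RPM run slightly below tags times their value. Windows not listed have unknown signal.

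Windows were joined with Python 3.11.15 (numpy 2.4.6, pandas 2.3.3, scipy 1.17.1), tested on simulated data, and overlaps of at least 1 bp were checked with bedtools 2.31.1. TSSs came from protein-coding transcripts of GENCODE vM1 on NCBIM37, which is mm9, and CpG islands (20435 on the 19 autosomes) were computed from that sequence. RPM values are not counts for a test here: with 1 library per group there is none, and shares carry 95% Wilson intervals, tags exact Poisson intervals, medians no test. Fewer windows were listed in Cxxc1-deficient (18403) than in WT cells (99316).

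Domains named are the 10 widest, the 10 of highest RPM, those at genes of the T-lineage, T-cell receptor signalling and CD4/CD8 lists, those with a Cxxc1 peak, the 10 widest with a Cxxc1-deficient peak and the 10 with the largest shared share; others named were chosen after their values were seen. The members and the gene lists were chosen with earlier results of these data known. Some loci are not reported here. Alternatives were other joining distances, widths, promoter definitions, overlap rules, RPM limits, stronger peaks and island criteria.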

Additional observations from a re-analysis of the deposited data

How the results depend on the processing

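No paired analysis was possible because no group holds more than 1 library. Of 58 recomputed values, those given here moved beyond their counting interval or by over 1.5 times, and the others did not. Joining across at most 1 missing window left 352 broad domains, of which 24.4% overlapped a Cxxc1-deficient peak and 9.13% of windows were shared. Joining across at most 5 gave 6.48% shared windows and 66% of a domain downstream of its TSS. A minimum of 4000 bp left 189 domains, 23.8% with a Cxxc1-deficient peak and 78.8% on a CpG island. With the most 5' TSS of each gene alone 88.6% were on an island, and with islands of at least 200 bp, 50% GC and a ratio of 0.6, 92.5%. Without an RPM limit 8.22% of windows were shared. With the stronger 50% of Cxxc1-deficient peaks the overlap was 13.0% of broad domains and 5.69% of narrower peaks, and requiring 50% of the shorter peak gave 9.13% of narrower peaks. The causes of these moves were not tested. In the 8 alternatives that give both shares the overlap with Cxxc1-deficient peaks was higher in broad domains than in narrower peaks. None of these alternatives matched WT signal, and within classes of summed WT RPM the intervals of the 2 shares overlapped. Leaving out Trpm8, an alternative chosen after seeing the data, moved none of the 4 values recomputed. With about 50 tags per domain and 2 or more tags per listed window, depth limits what could be listed.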

Other observations

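Gene families were picked by name after the values were seen, and no difference between them was tested. Of 46 ribosomal protein genes with a promoter peak of at most 10 RPM 3 were broad (Rpl36, Rps15 and Rps18; 6.52%, Wilson interval 2.24 to 17.5), and of 121 genes named Zfp 7 (5.79%, 2.83 to 11.5), against 9.88% of all 6911 marked genes. Of 6 marked Socs genes 3 were broad, of 3 marked Egr genes 2, of 12 marked Dusp genes 4, of 18 marked forkhead genes 4 (Foxe1, Foxo1, Foxo3 and Foxs1; 22.2%, 9 to 45.2), of 11 marked Hox genes 1 (Hoxa7) and of 7 marked Irf genes 0. The intervals of the ribosomal, Zfp and forkhead genes include the share of all marked genes. Only 1 of 1106 olfactory receptor genes was marked, and it was narrow. These counts rest on 1 library, and the genes of a family are not replicates.

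The domain of Fam72a and Srgap2 had the next highest Cxxc1-deficient signal after Trpm8, 5.2 RPM against 6.7 RPM in WT, with 10 of 19 windows shared. Both genes belong to families with related copies, and whether reads were shared between copies was not tested.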
